A study of Mus musculus with 4 samples.

Results

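The neighbourhood of Gata2 was taken as chromosome 6 of the mouse genome mm10 from 87000000 to 89500000, without the interval from 88170000 to 88260000 that holds Gata2, Dnajb8 and the regulatory elements cRE1, cRE2 and cRE3. Its members are all regions of this stretch in which any of 4 anti-NR2F1 single-cell CUT&Tag libraries had a called peak, with peaks that overlapped by at least 1 bp merged across libraries. They numbered 481, of 263639 merged regions in the whole series. The interval left out held 30 further regions, and none crossed its edges.

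Single-cell CUT&Tag uses an antibody to bring the transposase Tn5 to a chromatin protein, so that DNA beside the protein is cut, tagged and read together with a barcode for the cell. Each cut site counts once. The cells came from embryonic day 10.5 hindbrains carrying the Isl1MN-GFP transgene, a reporter that marks motor neurons, from dissected rhombomere 4 (r4) and adjacent tissue. 2 libraries were from Fam5snv/snv embryos, homozygous for a single-nucleotide variant within cRE2 (pools of 8 and 16 embryos), and 2 were from WT embryos (26 and 26), with the same GFP reporter in both genotypes. Per the sample labels, GFP-positive cells were sorted first and GFP-negative cells were admitted at the end of the sort, so the barcodes can include cells that are not motor neurons. Each library is 1 pool, and p-values therefore measure the spread between pools.

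NR2F1, also called COUP-TF1, is an orphan nuclear receptor that patterns the nervous system and often represses its targets. COUP-TFs bind as dimers to repeats of a half-site whose letters are AGGTCA, with short spacers. Gata2 encodes a zinc-finger factor that directs r4 motor neurons towards the inner-ear efferent fate. The genes on both sides of it have other jobs, from protein secretion and DNA replication to the plexin receptor Plxna1, through which axons read semaphorin cues. The comparison asked which of these genes and which distant elements carried NR2F1 signal, and whether a lower signal in Fam5snv/snv cells extended beyond Gata2.

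The libraries differed in depth and in how much of the genome the called peaks covered. The Fam5snv/snv libraries held 8967987 and 10341894 cut sites over 2274 and 2740 barcodes, against 3083946 and 3580517 cut sites over 2572 and 1377 barcodes in WT. Their peaks covered 108 Mb and 143 Mb, against 31.0 Mb and 93.1 Mb in WT. The 4 libraries shared between 3 and 12 barcodes per pair. Peaks had been called and counted in each library separately, so a library has no count outside its own peaks and a wider peak collects more cut sites. Signal is given as CPM, cut sites in relation to the library's tested total after TMM normalization, on a scale where that total is 1000000. Among marker genes of cell types, 7 of 8 of motor neurons and r4 had a tested promoter region (all but Mnx1). So did 4 of 4 markers of neural crest and mesenchyme, 1 of 4 of endothelium and 3 of 4 of blood. NR2F1 signal at a promoter is not expression, so these counts do not identify the cells. The summed signal of the motor neuron and r4 promoters was 723 and 706 CPM in Fam5snv/snv and 662 and 663 CPM in WT. Endothelial promoter signal rested on Sox18 and was 88.6 and 88.1 CPM in Fam5snv/snv, against 65.2 and 53.5 CPM in WT. Neural crest promoters summed to 70.7 and 51.0 CPM in Fam5snv/snv and 45.5 and 103 CPM in WT, and blood promoters to 84.2 and 77.3 CPM in Fam5snv/snv and 59.6 and 100.2 CPM in WT. The part of cell makeup in the results was not tested.

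All 81 members that had a peak in every library also reached the count minimum (10 cut sites or more in 2 or more libraries), and these 81 were tested. The other 400 had a peak in fewer than 4 libraries. A peak was called in 262 and 327 members in the Fam5snv/snv libraries, against 87 and 251 in WT. The libraries differed likewise over the genome, with 137996 and 170993 called peaks in Fam5snv/snv, against 42168 and 151951 in WT. All 4 libraries had a peak in 16.8% of members, against 13.6% of all merged regions. WT replicate 1, whose peaks covered the least of the genome, lacked a peak in 394 members. Of these, 54 had one in each of the other 3 libraries (11.2% of members, against 12.3% of all merged regions). Both Fam5snv/snv libraries and neither WT library had a peak in 53 members (11.02%, against 8.79% of all merged regions), whereas the reverse occurred in 0 members and in 47 regions of the whole series. Most of the untested members were small: 256 had a peak in 1 library. Members called in Fam5snv/snv replicate 2 alone made up 23.3%, against 24.3% of all merged regions. The shares were 17.5% against 21.9% for WT replicate 2 alone and 12.5% against 12.5% for Fam5snv/snv replicate 1 alone. The tested members held 84.2% and 78.7% of the member cut sites in Fam5snv/snv and 99.3% and 83.7% in WT.

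**Figure D1:**
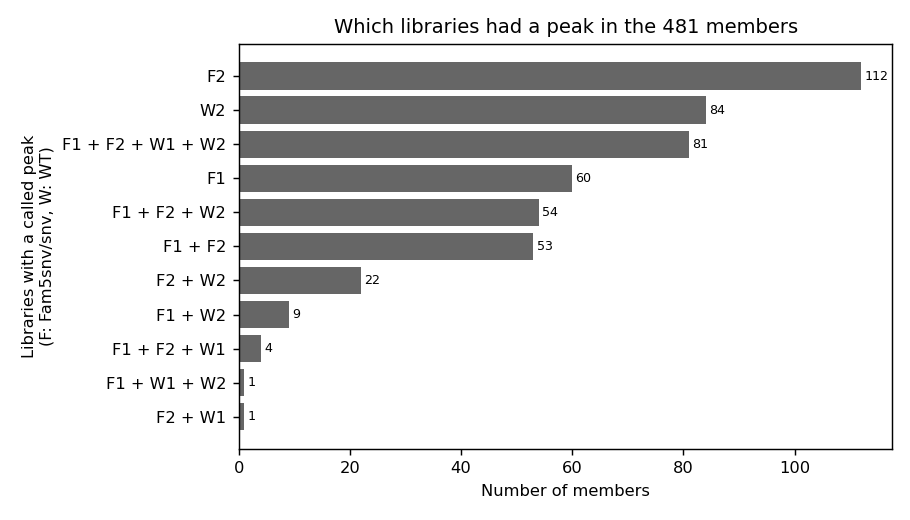
Number of members (x axis) by the set of libraries that had a called peak there (y axis, F for Fam5snv/snv and W for WT, with the replicate number). A peak was present in all libraries in 81 of the 481 members, and no bar stands for a peak in both WT libraries alone.

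Sequences around the midpoints of the tested members were read from the mouse reference (RefSeq assembly GRCm38.p6, the same build as mm10) to place the COUP-TF motif before the signal is described. The motif searched was the core AGGTCA, and the direct repeat AGGTCANAGGTCA with up to 2 mismatches, on both strands, within 250 bp of the midpoint. A repeat with no mismatch always contains the core, whereas one with mismatches need not. The core was present in 23 of 81 members (28.4%), against 33.8% of all tested regions. The repeat was present in 14 (17.3%), against 11.3% of all tested regions. Of the 8 tested regions in the interval left out, 2 held the core and 0 the repeat, although the paper detected NR2F1 at cRE1 and cRE2. A window without the repeat thus does not show a lack of binding. Within these windows, only the member 1188 kb downstream of Gata2 held the repeat with no mismatch, as did 0.590% of all tested regions (211). The stretches below are shown because they hold the 3 closest matches in the windows of the tested members. They also hold the matches in 2 of the 4 strongest of these members. Untested members and sequence further from the midpoints were not searched. The 13 capitals mark the repeat, each stretch reads 5′ to 3′ on the strand of the match, and distances are from the most upstream start site of Gata2.
+1188 kb region, chr6:89382038-89382110, minus strand, no mismatch: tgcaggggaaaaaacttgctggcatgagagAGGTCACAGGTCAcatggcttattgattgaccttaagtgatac
Arhgap25 promoter, chr6:87495184-87495256, minus strand, 1 mismatch: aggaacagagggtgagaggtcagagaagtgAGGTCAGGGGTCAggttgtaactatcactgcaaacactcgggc
+602 kb region, chr6:88795282-88795354, plus strand, 1 mismatch: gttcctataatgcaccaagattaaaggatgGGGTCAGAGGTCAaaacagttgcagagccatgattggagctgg
+734 kb region, chr6:88927853-88927925, minus strand, 2 mismatches: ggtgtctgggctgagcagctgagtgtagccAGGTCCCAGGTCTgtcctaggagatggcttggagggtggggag
+617 kb region, chr6:88810790-88810862, plus strand, 2 mismatches: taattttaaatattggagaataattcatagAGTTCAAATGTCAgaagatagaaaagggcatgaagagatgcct
Each of these 5 matches lay inside a called peak of all 4 libraries. The perfect repeat lay between genes, 1066 bp past the 3′ end of Chchd6 and 19.4 kb upstream of the most upstream start site of Plxna1. Those in the Arhgap25 promoter, the +602 kb region and the +617 kb region lay in introns (Arhgap25 and Mgll), and that of the +734 kb region lay between genes. A match in letters does not show that NR2F1 binds there.

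NR2F1 signal in the neighbourhood was concentrated far downstream of Gata2. The 43 tested members more than 500 kb downstream held 71.9% of the summed signal, 4 members alone held 29.6%, and 10 held 46.3%. Within 100 kb of the Gata2 start site there were 3 tested members upstream and 0 downstream. The interval left out, with 8 tested regions of its own, takes up most of that span downstream. By annotation, 24 tested members overlapped a protein-coding promoter (1 kb on either side of a start site) and carried 31.7% of the signal, against 51.4% for promoter regions over the whole series. Another 20 lay between genes (28.3% of the signal), 12 in noncoding genes only (15.9%), 16 in introns (10.9%) and 9 across exons (13.2%).

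**Figure D2:**
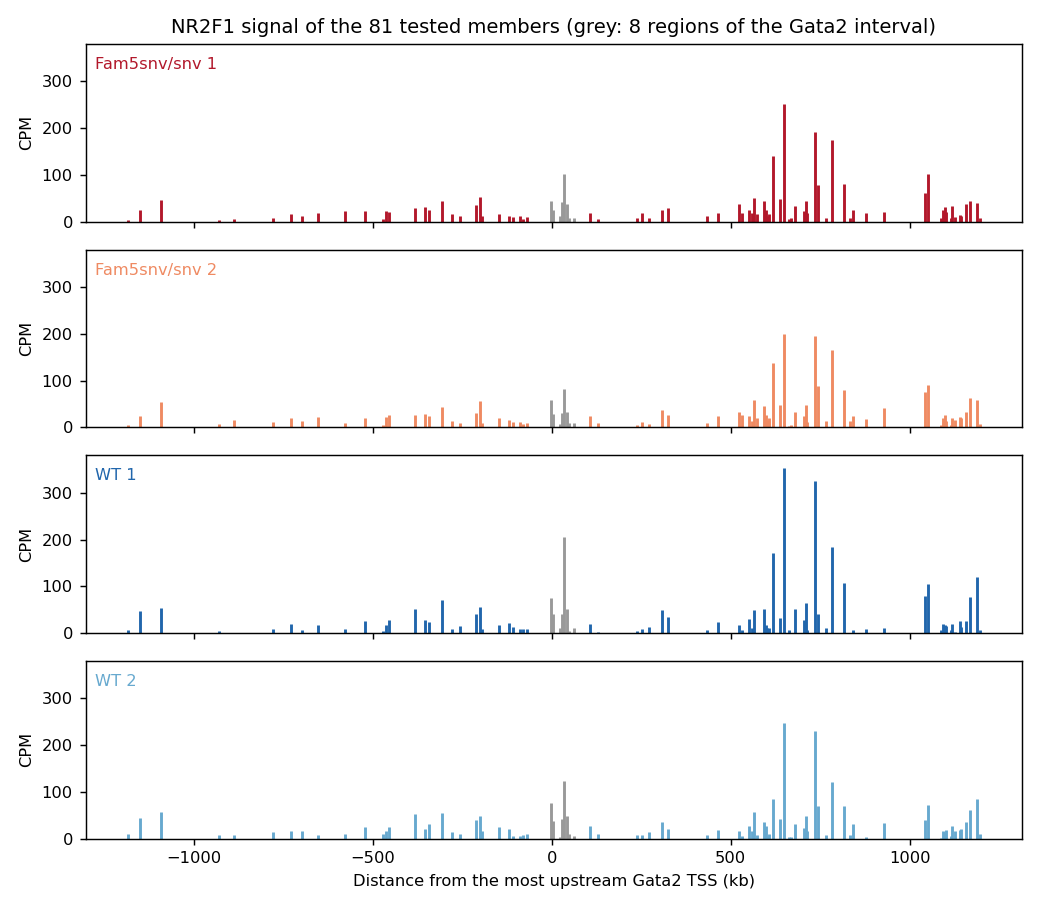
Signal in CPM (y axis, linear) of the 81 tested members in each library against the distance of the region's midpoint from the most upstream Gata2 start site (x axis, kb). Coloured lines are members and grey lines the 8 tested regions of the interval left out. In every library the tallest lines stand more than 500 kb downstream.

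The strongest member, chr6:88840716-88846224, covered the promoter of Abtb1, which encodes an ankyrin-repeat and BTB-domain protein, and the 3′ end of Podxl2. It ranked 75 among the 35770 tested regions of the series by mean signal. It carried 252 and 200.4 CPM in the Fam5snv/snv libraries (1845 and 1585 cut sites), against 354 and 248 CPM in WT (1010 and 706 cut sites). The genotypes overlapped, and the log2 fold change was −0.41 ± 0.27 (SE, edgeR quasi-likelihood test, adjusted p = 0.644). WT replicate 1, the highest, had its 1010 cut sites in a single peak of 2241 bp, whereas the Fam5snv/snv peaks were 5479 and 5393 bp wide. Without WT replicate 2 the log2 fold change was −0.65 (adjusted p = 0.00373), and without WT replicate 1 it was −0.14. After each barcode was thinned to 567 cut sites, 9.10% and 7.52% of barcodes had a cut site here in Fam5snv/snv, against 11.1% and 9.51% in WT. The exact 95% binomial intervals of Fam5snv/snv replicate 1 (7.95% to 10.4%) and WT replicate 2 (8.02% to 11.2%) overlapped. Such intervals cover counting error only, 641 shallower barcodes of WT replicate 1 were left out, and the unthinned shares were 27.0% and 21.5% in Fam5snv/snv and 14.8% and 19.9% in WT.

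The next strongest member, at +734 kb (chr6:88924288-88931416), lay between genes, 19877 bp from the nearest start site of Tpra1, and ranked 119. It carried 191 and 195 CPM in Fam5snv/snv, against 324 and 230.4 CPM in WT, so both Fam5snv/snv libraries were below both WT libraries. The log2 fold change of −0.52 ± 0.25 (SE) did not pass the test (edgeR adjusted p = 0.589). Its width was alike in the genotypes, with 6880 and 7062 bp of called peak in Fam5snv/snv and 5816 and 6892 bp in WT. Without WT replicate 2 the log2 fold change was −0.75 (adjusted p = 0.000751), and without WT replicate 1 it was −0.26.

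Part of the far signal lay inside the long noncoding gene 4933427D06Rik (chr6:88950683-89110031). It held 44 members, 6 of them tested, with 11.1% of the neighbourhood's signal. The broad +784 kb region (chr6:88969960-88985786) carried 175 and 165 CPM in Fam5snv/snv, against 183 and 122 CPM in WT. The +817 kb region (chr6:89006834-89014797) carried 79.7 and 79.3 CPM in Fam5snv/snv, against 108 and 71.0 CPM in WT. In both, WT replicate 1 was highest and WT replicate 2 lowest, so the Fam5snv/snv libraries fell between the WT libraries. Their log2 fold changes were 0.15 ± 0.25 and −0.17 ± 0.25 (SE, edgeR adjusted p = 0.867 and 0.844).

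The gene body of Mgll, which encodes monoacylglycerol lipase, an enzyme that breaks down an endocannabinoid, overlapped 35 members, 11 of them tested, with 14.6% of the signal. Its strongest member was the +617 kb region (chr6:88808067-88813343), which includes an exon. It carried 141 and 138 CPM in Fam5snv/snv, against 172 and 84.8 CPM in WT, with the Fam5snv/snv libraries between the WT libraries. Its log2 fold change was 0.12 ± 0.33 (SE, edgeR adjusted p = 0.923). It depended on the WT library used: 0.71 without WT replicate 1 (adjusted p = 0.0176) and −0.30 without WT replicate 2. At +1050 kb (chr6:89241465-89247024), between Tpra1 and Plxna1 and outside genes, signal was 103 and 91.0 CPM in Fam5snv/snv, against 104 and 72.1 CPM in WT. Its log2 fold change was 0.14 ± 0.24 (SE, edgeR adjusted p = 0.872).

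Of the 32 protein-coding genes with a start site in the neighbourhood, 23 had a tested promoter member. A further 4 had a promoter peak in some libraries only: Antxr1, an anthrax toxin receptor, Prokr1, a prokineticin receptor, Gp9, a platelet glycoprotein, and D6Ertd527e. Antxr1, Prokr1 and Gp9 lacked one in WT replicate 1 and D6Ertd527e in both WT libraries. The stomach genes Gkn1, Gkn2 and Gkn3, the cardiac ligand Bmp10 and the predicted gene Gm45140 had no promoter peak in any library. H1foo and vomeronasal receptor genes (Vmn1r), which had been listed as genes of this stretch, had no start site in it.

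Among the 23 of 32 genes with a tested promoter member were all 6 listed for the secretory and vesicle route. In that list, mean signal lay between 10.0 and 53.9 CPM. The strongest was Copg1, a coat subunit of Golgi-to-ER vesicles, with 45.1 and 44.1 CPM in Fam5snv/snv, against 70.4 and 55.9 CPM in WT. Rab43, a small GTPase of the Golgi, carried 29.9 and 27.4 CPM in Fam5snv/snv, against 50.8 and 52.8 CPM in WT. The Fam5snv/snv libraries were below the WT libraries in both promoters. Podxl2, a sialomucin, had 34.2 and 33.8 CPM in Fam5snv/snv, against 50.8 and 31.3 CPM in WT, and Sec61a1, the channel of the ER translocon, 29.3 and 27.4 CPM in Fam5snv/snv against 34.7 and 21.8 CPM in WT, with overlap in each. Rab7, of late endosomes, and Rpn1, of the oligosaccharyltransferase, made up the rest. Over these 6 regions the median log2 fold change was −0.27, 2 were lower at an unadjusted p under 0.05 and 0 passed adjustment (edgeR, smallest adjusted p = 0.573). Over all 12647 tested promoter regions the median was −0.21 and 847 (6.70%) were lower at an unadjusted p under 0.05, as were 3.37% of all tested regions.

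All 7 genes of DNA, RNA and translation upkeep had a tested promoter member, between 11.1 and 27.4 CPM. They were Isy1 (spliceosome), Cnbp (nucleic acid binding), Mcm2 (replicative helicase), Aplf (DNA break repair), Hmces (abasic-site protection), Ruvbl1 (a chromatin ATPase) and Eefsec (selenocysteine elongation factor). Mcm2 had 22.4 and 25.3 CPM in Fam5snv/snv, against 28.7 and 23.9 CPM in WT. The extremes were Ruvbl1, with 8.34 and 7.97 CPM in Fam5snv/snv against 12.6 and 15.5 CPM in WT, and Eefsec, with 18.6 and 10.6 CPM in Fam5snv/snv against 8.41 and 8.09 CPM in WT. Neither passed the test (edgeR adjusted p = 0.609 and 0.619), and 0 of the 7 had an unadjusted p under 0.05.

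Of 11 listed genes of signalling, receptors and adhesion with a start site in the stretch, 7 had a tested promoter member. These made 8 regions, since the start sites of Tpra1 fell in 2 regions. Of the 3 promoter regions of Plxna1, 1 was tested. Plxna1 carried 45.1 and 63.5 CPM in Fam5snv/snv, against 77.1 and 62.3 CPM in WT, with overlap. The upstream start of Tpra1, a membrane protein, carried 44.2 and 47.4 CPM in Fam5snv/snv, against 64.8 and 48.2 CPM in WT. Their log2 fold changes were −0.36 ± 0.25 and −0.30 ± 0.23 (SE, edgeR adjusted p = 0.653 and 0.677). That of Plxna1 was −0.13 without Fam5snv/snv replicate 1 and −0.62 without Fam5snv/snv replicate 2, and that of Tpra1 ran between −0.50 (WT replicate 2 left out) and −0.081 (WT replicate 1 left out). Arhgap25, whose window holds one of the repeats shown above, had 12.7 and 13.9 CPM in Fam5snv/snv, against 5.96 and 16.2 CPM in WT. The others were Abtb1, Mgll, Efcc1 and Kbtbd12. In this list 0 regions were lower and 1, that of Mgll, was higher at an unadjusted p under 0.05, as were 195 (1.54%) of all tested promoter regions and 5.29% of all tested regions. Outside the lists, Gfpt1, Nfu1 (iron-sulphur cluster assembly) and the linker histone gene H1fx had tested promoters.

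**Figure D3:**
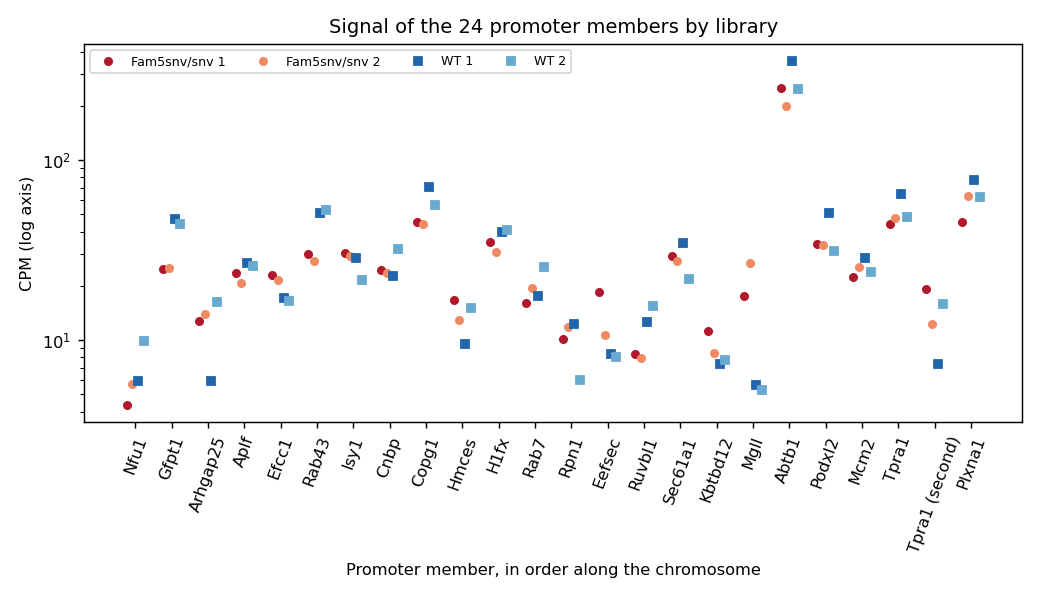
Signal in CPM (y axis, log scale) of the 24 tested promoter members in each library, in order along the chromosome (x axis). Circles are Fam5snv/snv and squares WT libraries, each a single value. The Abtb1 promoter stands above the others. The Fam5snv/snv libraries are both below the WT libraries at 8 promoters, among them Gfpt1 and Rab43 (33.3%, against 37.8% of all tested promoter regions), and both above at 5, among them Mgll (20.8%, against 10.4%).

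As a share of each library, the summed signal of the tested members overlapped between the genotypes. They held 0.267% and 0.273% of the tested cut sites in Fam5snv/snv and 0.273% and 0.259% in WT, that is 0.270% ± 0.00442 and 0.266% ± 0.0102 (SD, n = 2 libraries each). The exact two-sided permutation test gave p = 1, where the smallest p that 2 against 2 libraries allow is 0.333. This depended on the measure: over members covered to at least 50% by each library, the share was 0.166% and 0.184% in Fam5snv/snv, against 0.191% and 0.195% in WT (log2 ratio −0.14, exact permutation p = 0.333). Per kb of called peak the summed signal was 13.5 and 11.8 CPM in Fam5snv/snv, against 34.2 and 16.6 CPM in WT (log2 ratio −1.0), and per barcode it was 8.40 and 7.63 cut sites in Fam5snv/snv, against 3.26 and 5.23 cut sites in WT (log2 ratio 0.92). The median log2 fold change of the 81 members was 0.06, against 0.02 over all 35770 tested regions and 0.03 over the 1802 on chromosome 6. Of the members, 33 (40.7%) had a negative value, against 48.3% of all tested regions. In the interval left out, the median of 8 tested regions was −0.34, with 5 negative and 4 lower at an unadjusted p under 0.05. The strongest of these 4, which holds cRE1 and cRE2, carried 102 and 83.1 CPM in Fam5snv/snv, against 205 and 123 CPM in WT. Whether the members differed from that interval was not tested.

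Without regard to side, no gradient by absolute distance from Gata2 was seen. The median log2 fold change was −0.15 for the 11 members more than 500 kb upstream, −0.23 for the 15 between 100 and 500 kb upstream and 0.28 for the 3 nearer ones. It was 0.0049 for the 9 between 100 and 500 kb downstream and 0.18 for the 43 beyond. Across the 81 members, the Spearman correlation between the log2 fold change and the absolute distance was 0.05, a description over regions of the same libraries. The correlation pools the sides, which differed. Negative values made up 54.5%, 66.7% and 33.3% of the upstream groups, from far to near. Downstream they made up 44.4% between 100 and 500 kb and 27.9% beyond. The tested members nearest to the interval were the −70 kb region (chr6:88123391-88124728), between genes, and the +106 kb region (chr6:88298072-88301423), which overlaps an exon of Eefsec. The −70 kb region had 10.8 and 10.1 CPM in Fam5snv/snv, against 7.71 and 9.50 CPM in WT (log2 fold change 0.28 ± 0.46, SE). The +106 kb region had 19.7 and 24.7 CPM in Fam5snv/snv, against 18.9 and 27.1 CPM in WT (log2 fold change −0.05 ± 0.31, SE).

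**Figure D4:**
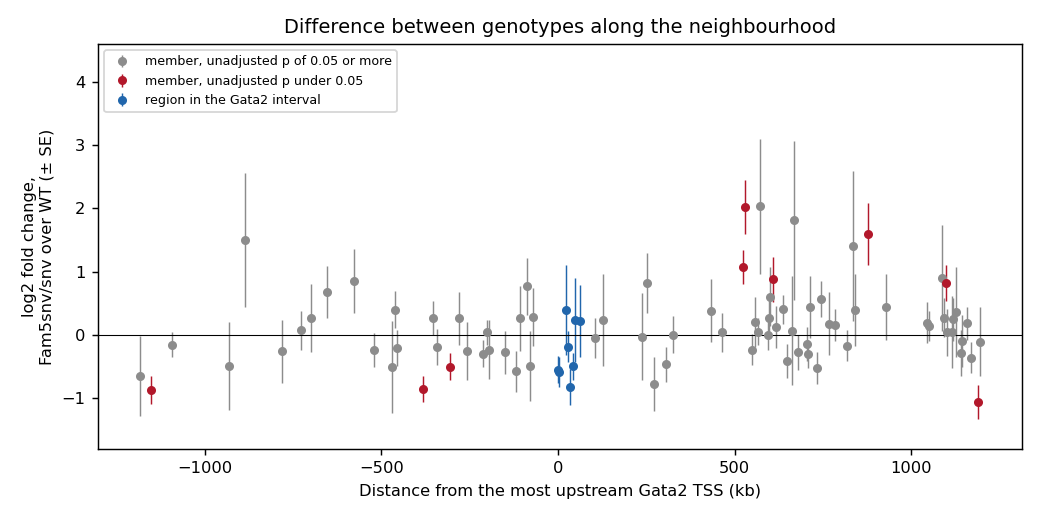
Log2 fold change of Fam5snv/snv over WT (y axis, bars ± SE) of the 81 tested members and of the 8 tested regions in the Gata2 interval, against distance from the most upstream Gata2 start site (x axis, kb). Members lie on both sides of 0 along the whole stretch, with 4 lower and 5 higher at an unadjusted p under 0.05.

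No member passed the threshold of an adjusted p under 0.05 with edgeR, nor did any region of the series (0% called, smallest adjusted p = 0.573). At an unadjusted p under 0.05, 4 members were lower in Fam5snv/snv (4.94%, against 3.37% of all tested regions) and 5 were higher (6.17%, against 5.29%). Both Fam5snv/snv libraries were below both WT libraries in 15 members (18.5%, against 21.4%) and above them in 21 (25.9%, against 23.2%). These edgeR shares are near those of the whole series. DESeq2's Wald test called 3 members lower (3.70%, against 0.542% of all tested regions) and 2 higher (2.47%, against 1.02%), at an adjusted p under 0.05. Leaving out a WT library changed these edgeR counts: without WT replicate 1, 2 members were called lower and 5 higher, and without WT replicate 2, 6 lower and 10 higher. The lone WT library is then assumed to vary as the Fam5snv/snv pair does, and those fits called 419 and 2221 regions lower and 1492 and 4094 higher over the whole series. With either Fam5snv/snv library left out, 0 members were called.

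The largest lower value belonged to the +1188 kb region (chr6:89380207-89383901). This region overlaps an exon at the 3′ end of Chchd6, a gene for a mitochondrial cristae protein. The region holds the perfect repeat 19 bp from its midpoint, at a site between the 3′ end of Chchd6 and the start of Plxna1. It carried 40.5 and 58.2 CPM in Fam5snv/snv (296 and 460 cut sites), against 119 and 85.8 CPM in WT (340 and 244 cut sites). Both Fam5snv/snv libraries were below both WT libraries, with means of 49.3 ± 12.5 and 102 ± 23.5 CPM (SD, n = 2 each). The log2 fold change was −1.05 ± 0.27 (SE, 95% interval −1.69 to −0.42), with an edgeR adjusted p = 0.573 and a DESeq2 adjusted p = 0.0142. It was negative in every fit with 1 library left out, between −1.33 and −0.80. Its called peaks were somewhat wider in Fam5snv/snv (3108 and 3695 bp) than in WT (2570 and 2724 bp). The 211 tested regions of the series with a perfect repeat within 250 bp of the midpoint had a median log2 fold change of 0.07. Of them, 7 (3.32%) were lower and 7 higher at an unadjusted p under 0.05. The part of the repeat was not tested. This region was singled out after its values were seen.

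The other 3 lower members were promoters. The region of Gfpt1, the rate-limiting enzyme of the hexosamine pathway (chr6:87041937-87043761), carried 24.7 and 25.2 CPM in Fam5snv/snv, against 46.9 and 44.3 CPM in WT. Its log2 fold change was −0.87 ± 0.22 (SE, edgeR adjusted p = 0.573, DESeq2 adjusted p = 0.0195). The Rab43 promoter (chr6:87810296-87812787) had a log2 fold change of −0.85 ± 0.21 (SE, edgeR adjusted p = 0.573, DESeq2 adjusted p = 0.0158). That of Copg1 (chr6:87887197-87889143) was −0.50 ± 0.21 (SE, edgeR adjusted p = 0.576). Gfpt1 and Rab43 showed little spread within each genotype, and their called peaks had the same mean length in both genotypes (log2 length ratio 0.02 and −0.01). Lower values at promoters were common in the series: the median log2 fold change was −0.21 over all 12647 tested promoter regions, −0.21 over the 24 promoter members, and 0.14 over the 57 members outside promoters (0.19 over all tested regions outside promoters).

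The 5 higher members lay downstream. The Mgll promoter (chr6:88722093-88725905) carried 17.6 and 26.8 CPM in Fam5snv/snv, against 5.61 and 5.28 CPM in WT, a log2 fold change of 2.03 ± 0.42 (SE, edgeR adjusted p = 0.573, DESeq2 adjusted p = 0.00931). The +523 kb region (chr6:88715292-88718242), in the noncoding gene Gm26588 that overlaps the start of Mgll, carried 37.7 and 32.6 CPM in Fam5snv/snv, against 16.5 and 16.9 CPM in WT. Its log2 fold change was 1.08 ± 0.26 (SE, edgeR adjusted p = 0.573, DESeq2 adjusted p = 0.0317). The groups were apart in both. The others were the +879 kb region in 4933427D06Rik, with 18.7 and 18.5 CPM in Fam5snv/snv against 8.41 and 3.87 CPM in WT, the +1098 kb region between genes and the +608 kb region in an intron of Mgll. Their log2 fold changes were 1.59, 0.82 and 0.88 (edgeR adjusted p between 0.573 and 0.575).

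The length of called peak moved with these higher values. At the Mgll promoter, Fam5snv/snv replicate 2 had 1 peak of 3813 bp with 212 cut sites and replicate 1 had 110 of its 129 cut sites in a peak of 1408 bp. WT replicate 1 had 14 cut sites in a peak of 396 bp and WT replicate 2 had 15 in a peak of 523 bp. Per kb of called peak the order turned round, with 9.26 and 7.03 CPM in Fam5snv/snv and 12.2 and 10.1 CPM in WT. All 5 higher members had a log2 length ratio of at least 1.15, and in each the mean CPM per kb was lower in Fam5snv/snv (log2 ratios between −1.20 and −0.42). CPM per kb was also lower in every other region followed through the alternatives, and in the summed signal of the tested members (log2 ratio −1.0). A lower value per kb therefore does not set these 5 apart. Over the 81 members, the Spearman correlation between the log2 fold change and the log2 length ratio was 0.83 (0.80 over all tested regions), a description over regions that share libraries and in which both measures come from the same peaks. Of the 25 members with a log2 length ratio under 0.5, 24 had a negative log2 fold change (median −0.30). Of the 32 with a ratio of 1 or more, 2 did (median 0.40). The part of peak length in the differences was not tested.

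**Figure D5:**
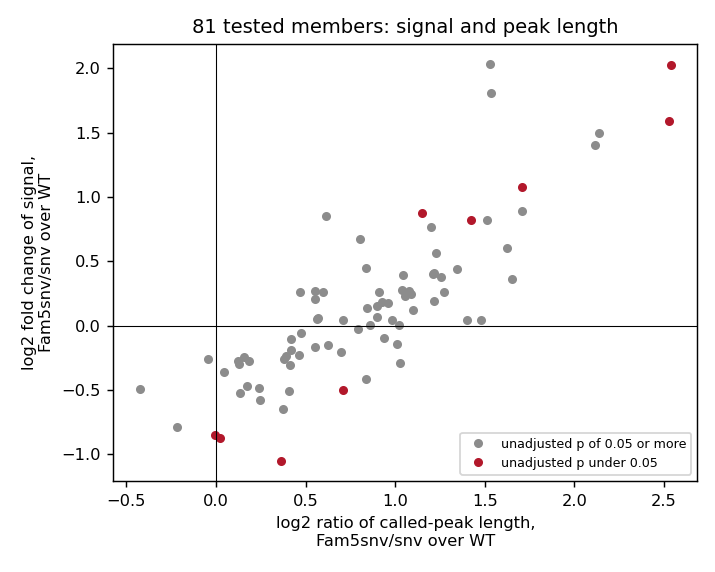
Log2 fold change of signal (y axis) against the log2 ratio of called-peak length (x axis), both Fam5snv/snv over WT, for the 81 tested members. The points rise together (Spearman correlation 0.83), the higher members with an unadjusted p under 0.05 lie at a length ratio of at least 1.15, and the lower ones at 0.71 or less.

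Among untested members with a peak in both Fam5snv/snv libraries only, those with most cut sites were the +773 kb region (chr6:88965011-88968330, in 4933427D06Rik, 95 and 100 cut sites), the +1121 kb region (chr6:89313912-89316035, in Gm26811, 49 and 72) and the −78 kb region (chr6:88114265-88116853, between genes, 52 and 69). WT libraries have no count there because no WT peak was called, so the size of the difference is unknown. Of the tested members, 3 had a WT replicate 1 peak with 0 cut sites in the barcodes kept as cells, while WT replicate 2 had 26, 11 and 25 cut sites there.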

How the data were processed

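For every library the authors deposited called peaks, a list of cell barcodes and a matrix of counts, each entry a whole number of cut sites. Cell Ranger-ATAC 2.0.0 is named in the paper's methods, Cell Ranger ATAC and mm10 in the submitters' processing notes, and software version 1.2.0 in the headers of the deposited count matrices. Peak files hold positions and no score. Barcodes were used as deposited, with no doublet caller.

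Deposited counts were added up over all barcodes, library by library. Regions called in all 4 libraries that reached 10 cut sites in 2 or more of them (35770 of 263639) were fitted together in edgeR 4.0.16 (quasi-likelihood test, TMM, no block; R 4.3.3). P-values were adjusted over all of them after Benjamini and Hochberg. The fit had 2 residual degrees of freedom and a common biological coefficient of variation of 0.305. The median tested member held 144 and 164 cut sites in Fam5snv/snv and 48 and 52 in WT. Annotation was GENCODE M21. Alternatives, among them DESeq2 1.42.0, are described with the limits.

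Named regions were all tested promoter members, the 5 strongest others, up to 5 of smallest unadjusted p under 0.05 per direction, the nearest tested one on each side of the interval, and up to 3 of most cut sites called in 1 genotype only. Members, lists and tests were chosen with earlier results of these data known.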

Additional observations from a re-analysis of the deposited data

How the results depend on the processing

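DESeq2's test called 560 regions of the series, with 3 members lower and 2 higher at an adjusted p under 0.05, where edgeR called 0. With 1 library left out, members lower ranged from 0 to 6 and higher from 0 to 10 at an adjusted p, and from 1 to 11 and 1 to 16 at an unadjusted p under 0.05. The calls at an adjusted p came only with a WT library left out. The median log2 fold change of the members ranged from −0.010 to 0.11 and that of the summed share from −0.02 to 0.06. Scaling by barcode number moved the median of all tested regions to 0.97, left 0 members lower and put 22 of 81 higher at an unadjusted p (8708 of 35770 over the series). Where each library covered at least 50% of a region, 17 members could be tested, of which 3 were lower (298 of 8900 over the series) and 1 was higher (582 of 8900) at an unadjusted p. Library size alone gave a member median of 0.15 (all regions 0.10). The summed share's log2 ratio of 0.02 became 0.92 per barcode, −1.0 per kb of called peak and −0.14 over regions covered to at least 50%.

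Pairing by replicate number had no basis in the labels (r = 0.03 between the genotypes' replicate differences). With the replicate as a block, 0 members were called at an adjusted p, 3 were lower and 6 higher at an unadjusted p, and the median was 0.05.

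Per kb of called peak, an alternative chosen after seeing the data, the log2 fold change changed sign at the Mgll promoter (−0.45) and at the +523 (−0.69), +608 (−0.42), +617 (−1.0), +784 (−0.79), +879 (−1.20), +1050 (−0.72), +1098 (−0.71) and −70 kb regions (−0.91). That of the Gfpt1, Rab43, Copg1, Abtb1, Plxna1, Tpra1, +1188, +734, +817 and +106 kb regions stayed negative. Leaving out 1 library also turned +784 (−0.11 to 0.46), +617 (−0.30 to 0.71), +1050 (−0.10 to 0.42), +817 (−0.44 to 0.15) and +106 kb (−0.29 to 0.23). The +817 kb region was 0.15 among regions covered to at least 50%, and +106 kb was 0.013 with library size alone. The other 5 followed regions in the covered fit stayed negative but were smaller in size than in the main fit. They were −0.57 at Gfpt1, −0.56 at Rab43, −0.73 at +1188 kb, −0.20 at +734 kb and −0.05 at Plxna1. All of them, and the +817 kb region, moved upward by similar amounts. Counts were the same in both fits, but TMM was computed anew over the 8900 covered regions, which shifts all values together. The change of size or sign is therefore not particular to these regions. The part of this rescaling was not tested separately. The count filters, DESeq2 size factors and the 500 bp merge turned none of the 19 regions followed.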
